A study of Mus musculus with 4 samples.

Results

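The transcripts described here are the spliced, noncoding RNAs of the small nucleolar RNA (snoRNA) host genes Snhg1, Snhg3, Snhg4, Snhg5, Snhg6, Snhg7, Snhg8, Snhg11, Snhg12 and Gas5. They were followed in brown adipose tissue (BAT) of Tg mice after activation of the integrated stress response (ISR). The host genes were chosen by their log2 difference between the treatments in earlier results of the same arrays, so the comparison between the treatments is given as a description and without a test for these genes. All non-control probes whose accession belongs to a listed gene were taken, which gave 9 of 55681 probes and 7 of 10 genes. The accessions of the probes for Snhg12, Snhg1, Snhg6, Snhg7 and Snhg3 were matched through a RefSeq table. The accessions of Snhg5 and of the 3 Gas5 probes were named through probe and symbol pairs of the study's supplementary table, of which only the upper part, sorted by fold change, was used here. A Snhg5 or Gas5 probe was therefore named because its accession stood among the highest ratios, and these 4 probes are not independent evidence of a direction. Probes for Snhg4, Snhg8 and Snhg11 were not analysed here.

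All mice were male maP2-Fv2E-PERK transgenic (Tg) mice at 8 weeks of age. In the Fv2E-PERK transgene, the catalytic part of PERK, which phosphorylates eIF2α, is fused to the ligand-binding module Fv2E. Its expression is under the mouse aP2 (Fabp4) promoter, and this drives it in fat cells but can also drive it in macrophages and their precursors. The AP group (n = 2) received an intraperitoneal injection of AP20187 (AP), the dimerizer that turns the kinase on, at 1 ng/g by the labels, whereas the study's legend gives a larger dose. The vehicle group (n = 2) received the solvent of ethanol, PEG-400 and Tween-20, and BAT was taken 12 h later from both groups. No mice without the transgene were on these arrays, so the ligand itself and the kinase cannot be told apart.

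RNA of each mouse was hybridized to its own one-color Agilent array, and between 46.4% and 49.0% of the non-control spots on an array were well above background. All levels below are log2 signals minus the 75th percentile of the same array, so a value of 0 is that percentile. Values of a pair of mice are given as replicate 1 then replicate 2. Levels of different probes cannot be set against each other. Of the 24905 probes compared, 0 passed an adjusted p of 0.05 in limma, 1508 had an unadjusted limma p under that value, and the methods' t-test, run on the 24350 probes with a value on every array, gave 0 and 1435 probes. The 10 brown adipocyte markers were all measured, with a summed signal of 4946 to 7468 times the 75th percentile. Vehicle replicate 1 held less of the 10 skeletal muscle markers than the other arrays, with a summed signal of 59.7 against 385.0 to 832.1. The highest sum, 832.1, was that of vehicle replicate 2. Of these 10 markers, 10 were higher with AP on average, with a median log2 difference of 0.96. Among all named genes, 51.4% were higher. Tnni2 had the largest difference of the 10, at 3.08, but no value in vehicle replicate 2. Vehicle replicate 2 held more of the 9 leukocyte markers compared, at 116.2 against 44.8 to 49.0 on the other arrays. Of these 9 markers, 9 were lower with AP on average, with a median log2 difference of -0.56, where 51.4% of all named genes were higher. Of them, 1, Itgam, was lower at an unadjusted limma p under 0.05, against 2.77% of all probes. Itgam was not highest in vehicle replicate 2, at 4.21 then 3.82 for the vehicle pair. The sum of the 5 white adipose markers was lower in both AP-treated mice. It was 61.5 then 67.7 for the vehicle pair and 49.5 then 46.9 for the AP pair. Of the 5, 1, the adipokine gene Lep, was lower at an unadjusted limma p under 0.05, against 2.77% of all probes. Both AP arrays lay below both vehicle arrays for 2 of them, Lep and Retn, and above for 1, Nrip1. The shares over all named genes were 17.7% and 20.4%. The sum of the 3 erythroid markers compared was 545.2 then 347.3 for the vehicle pair and 268.1 then 382.8 for the AP pair. The part of these markers in the host RNA values below was not tested. In whole tissue, fewer cells of a type and less RNA per cell cannot be told apart.

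snoRNAs guide the chemical modification of ribosomal and other RNAs, and most mammalian ones are cut from the introns of a host transcript. In the host genes studied here, the introns carry the functional snoRNAs, while the spliced exons hold only short open reading frames. Such host RNAs commonly begin with a tract of pyrimidines, as ribosomal protein mRNAs do, are loaded onto ribosomes and are then degraded by nonsense-mediated mRNA decay (NMD), a pathway that needs translation. Phosphorylation of eIF2α slows translation initiation, and the level of a spliced host RNA can depend on its transcription as well as on its decay, which an array does not separate. In the RefSeq table of assembly GRCm38.p6, Snhg1 and Gas5 each enclose 8 annotated snoRNA genes, Snhg12 encloses 4, Snhg3, Snhg5 and Snhg7 enclose 2 each and Snhg6 encloses 1. None of these snoRNAs was matched to a probe.

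The annotated starts of these genes are shown because the host RNAs share features there that the choice of genes did not use. Each line runs from 60 bases before to 50 bases after the start in GRCm38.p6 (RefSeq). The first capitals are the letters TATA where they stand between 40 and 20 bases before the start, and the other capitals are the longest run of C and T that touches the 10 bases on either side of the start.
Snhg12, chr4:132308618-132308727, plus strand: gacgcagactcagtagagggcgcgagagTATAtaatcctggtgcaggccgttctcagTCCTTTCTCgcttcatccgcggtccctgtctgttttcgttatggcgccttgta
Snhg1, chr19:8723427-8723536, plus strand: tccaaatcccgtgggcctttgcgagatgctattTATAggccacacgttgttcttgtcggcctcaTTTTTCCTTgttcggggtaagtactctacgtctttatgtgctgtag
Snhg5, chr9:88522848-88522957, minus strand: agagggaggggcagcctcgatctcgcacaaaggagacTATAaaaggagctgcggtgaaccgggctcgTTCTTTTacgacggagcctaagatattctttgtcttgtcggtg
Gas5, chr1:161035106-161035215, plus strand: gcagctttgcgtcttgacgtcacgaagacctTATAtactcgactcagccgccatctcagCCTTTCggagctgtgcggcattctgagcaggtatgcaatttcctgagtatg
Snhg7, chr2:26640195-26640304, minus strand: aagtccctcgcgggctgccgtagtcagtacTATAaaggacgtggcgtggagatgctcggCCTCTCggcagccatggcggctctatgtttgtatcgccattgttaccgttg
Snhg3, chr4:132353637-132353746, minus strand: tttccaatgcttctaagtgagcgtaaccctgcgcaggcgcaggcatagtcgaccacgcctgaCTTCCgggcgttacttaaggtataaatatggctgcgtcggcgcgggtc

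For the listed genes, any start on the chromosome that carries Snhg4 was left out. Elsewhere, the promoter table gave 9 starts for 8 of the listed genes, with 2 for Gas5, of which the downstream one is printed. TATA stood in the stated place, on the strand of the gene, at 6 of the 9 starts, against 5.81% of 32851 annotated starts of all genes. The pyrimidine run was 9 bases long in Snhg12 and Snhg1, 7 in Snhg5, 6 in Gas5 and Snhg7, and 5 in Snhg3. The median was 6 over the 9 starts and 4 over all starts, and a run of at least 6 bases was found at 6 of 9 starts and at 30.0% of all starts. In the 300 bases from 250 before the start, TTNCATCA, which covers the core of the element that ATF4 dimers read at amino acid response genes, was found on either strand at 0 of the 9 starts and at 3.97% of all starts. TGACG, the core of a cyclic AMP response element, was found on either strand at 3 of 9 starts and at 20.8% of all starts, and in Gas5 it forms the palindrome visible upstream of TATA. In the printed bases no TATA overlapped a pyrimidine run, while in the Gas5 palindrome TGACG on the plus strand overlapped TGACG on the minus strand. The motifs, and the place in which TATA was counted, were chosen with these sequences in view, so the shares describe them only.

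The host RNAs were, as a group, higher in the AP-treated mice. Both AP arrays lay above both vehicle arrays for 6 of the 9 probes, whereas 18.3% of all probes compared did so. The 6 probes are those of Snhg12, Snhg1, Snhg5, Snhg6 and Snhg7 and 1 of the 3 probes of Gas5. Of them, 4 were also at least 2-fold higher, against 1.78% of all probes. All 9 probes were well above background on all 4 arrays, so none passed the filter on dim probes through the AP group alone. The probe of Snhg5 and the 3 probes of Gas5 were, however, named because their accession stood among the highest ratios. The median log2 difference was 0.94 over the 9 probes and -0.01 over all probes, and all 9 differences were above 0, as were 48.6% of all probes. Because the genes were chosen with this contrast in view, these shares describe the members and are no test of them, and probes of the same gene share a transcript.

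**Figure D1:**
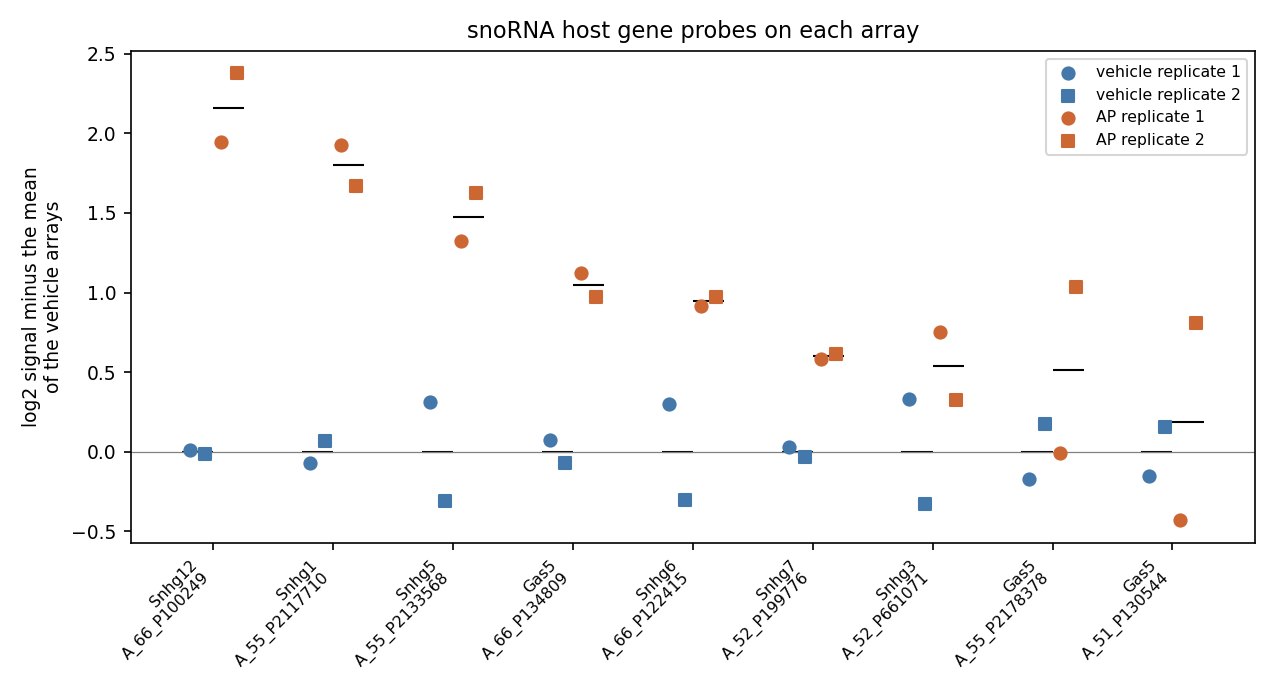
Log2 signal of each host gene probe on each array, minus the mean of the vehicle arrays for that probe. Circles and squares are replicates 1 and 2, blue is vehicle, orange is AP and the short lines are group means (n = 2). The groups are apart for the 6 leftmost probes and overlap for Snhg3 and for the other 2 Gas5 probes.

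Snhg12, which lies next to Trnau1ap and hosts box H/ACA and box C/D snoRNAs, had the largest difference. Probe A_66_P100249 was at 1.26 then 1.23 for the vehicle pair and at 3.19 then 3.62 for the AP pair. The vehicle-treated mice were almost equal, and the lower AP-treated mouse was 1.93 above the higher of them. The means were 1.25 ± 0.02 (SD, n = 2) and 3.41 ± 0.31 (SD, n = 2), a log2 difference of 2.16 (standard error 0.24), or 4.47-fold. By size it was number 56 of the 24905 probes. With 1 mouse left out at a time, the difference was between 1.95 and 2.38, and with normexp background correction it was lowest among the other ways to process the arrays, at 3.99-fold.

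Snhg1, the host of a large cluster of box C/D snoRNAs, came next. Probe A_55_P2117710 was at -0.51 then -0.38 for the vehicle pair and at 1.48 then 1.22 for the AP pair. Unlike for Snhg12, the first AP mouse exceeded the second, and the gap between the groups was 1.60. The log2 difference was 1.80 (standard error 0.22), or 3.48-fold, and it was between 1.67 and 1.93 with 1 mouse left out at a time. With normexp background correction it was 1.34.

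Snhg5, known in human cells as the host of U50 snoRNAs, was measured by the dim probe A_55_P2133568. Its spot was 2.88 to 6.31 times as bright as the local background. The level was -1.89 then -2.51 for the vehicle pair and -0.88 then -0.57 for the AP pair. The groups did not overlap, but vehicle replicate 2 differed from vehicle replicate 1 by -0.62. The log2 difference was 1.48 (standard error 0.30), or 2.78-fold. With normexp, which here came with an offset of 50 and the median spot signal, it was 0.72, or 1.65-fold, and it was 1.16 without vehicle replicate 2.

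Gas5, the growth arrest-specific transcript first found in arrested cells, was covered by 3 probes of the same accession, and they did not give the same picture. Probe A_66_P134809 was at 2.39 then 2.25 for the vehicle pair and at 3.44 then 3.29 for the AP pair. Replicate 2 differed from replicate 1 by -0.14 with vehicle and by -0.15 with AP, and the groups were 0.90 apart. The log2 difference was 1.05 (standard error 0.21), or 2.07-fold, and it was between 0.97 and 1.12 with 1 mouse left out at a time.

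The other Gas5 probes were much closer to background and did not separate the groups. Probe A_55_P2178378 was at -1.77 then -1.42 for the vehicle pair and at -1.61 then -0.57 for the AP pair. Probe A_51_P130544 was at -1.84 then -1.53 for the vehicle pair and at -2.12 then -0.88 for the AP pair. Both were highest in AP replicate 2, while AP replicate 1 lay between the vehicle-treated mice for A_55_P2178378 and below both for A_51_P130544. The log2 differences were 0.51 (standard error 0.41) and 0.19 (standard error 0.47). Without AP replicate 2 they were -0.01 and -0.43, and without AP replicate 1 they were 1.03 and 0.81. The spots of these probes were between 3.03 and 6.09 times as bright as the local background, and those of A_66_P134809 between 29.5 and 69.8 times. The positions of the probes in the transcript were not analysed here, and Gas5 has several annotated splice forms. The part that brightness or splice form had in the disagreement was not tested.

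Snhg6, the host of the box C/D snoRNA Snord87, was higher in both AP-treated mice by a smaller amount. Probe A_66_P122415 was at 4.06 then 3.45 for the vehicle pair and at 4.67 then 4.72 for the AP pair. The AP-treated mice were nearly equal, and most of the spread lay between the vehicle-treated mice. The log2 difference was 0.94 (standard error 0.28), or 1.92-fold, and leaving out vehicle replicate 2 or vehicle replicate 1 gave 0.64 or 1.25.

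Snhg7, the host of Snora17 and Snora43, had a small difference and the tightest replicates. Probe A_52_P199776 was at 0.56 then 0.50 for the vehicle pair and at 1.11 then 1.15 for the AP pair. The groups were 0.55 apart, and replicate 2 differed from replicate 1 by -0.06 with vehicle and by 0.03 with AP. The log2 difference was 0.60 (standard error 0.20), or 1.51-fold, and it was between 0.57 and 0.63 with 1 mouse left out at a time. It was 0.42 with normexp and 0.44 with the authors' log2 table.

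Snhg3, the host of Snora73a and Snora73b (U17), did not separate the groups. Probe A_52_P661071 was at 2.91 then 2.25 for the vehicle pair and at 3.33 then 2.90 for the AP pair. AP replicate 2 was at the level of vehicle replicate 1, with a gap of -0.0018. The log2 difference was 0.54 (standard error 0.33), or 1.45-fold, and without vehicle replicate 2 it was 0.21.

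**Figure D2:**
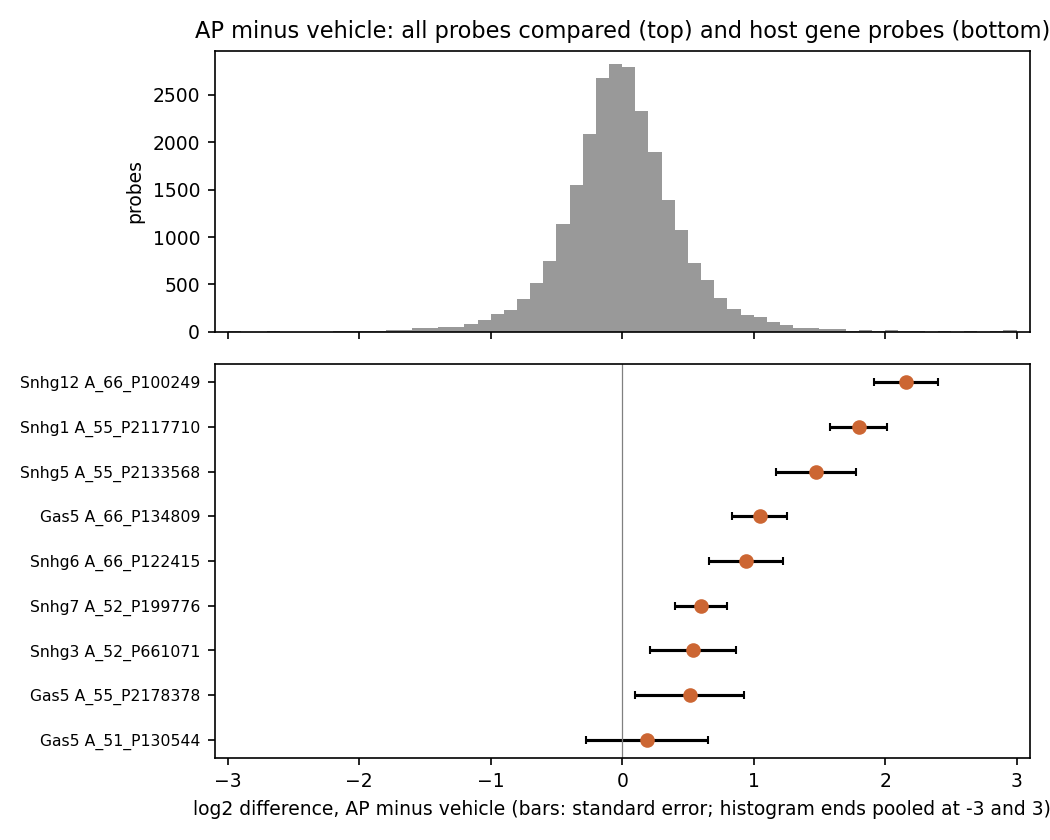
Log2 difference of AP minus vehicle for all 24905 probes compared (top, number of probes per bin of 0.1) and for the 9 host gene probes (bottom, points with standard errors from limma). All 9 points are above 0, from 0.19 for Gas5 probe A_51_P130544 to 2.16 for Snhg12.

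The host RNAs did not share the order of the AP-treated mice. AP replicate 2 was above AP replicate 1 for 6 probes and below it for 3, namely Snhg1, Snhg3 and Gas5 probe A_66_P134809. Among known ISR targets, Trib3, a pseudokinase induced by ATF4 and DDIT3, was at 2.78 then 2.33 for the vehicle pair and at 6.26 then 8.01 for the AP pair. Chac1, a glutathione-degrading enzyme and ATF4 target, was at 2.06 and 3.83 in AP replicates 1 and 2. All of the 9 ISR targets compared were higher with AP on average and higher in AP replicate 2 than in AP replicate 1. Of them, 0 passed the adjusted threshold of limma and 6 were higher at an unadjusted p under 0.05, against 3.28% of all probes, with 0 lower, against 2.77%. The count of 6 was 3 without AP replicate 2, 8 without AP replicate 1, 4 without either vehicle mouse and 1 with the methods' t-test. The median absolute difference between the AP-treated mice was 0.31 over the host gene probes and 0.27 over all probes, and between the vehicle-treated mice it was 0.31 and 0.30.

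Muscle and leukocyte markers differed most between the vehicle-treated mice, so the host RNAs are set beside them there. The summed signal of skeletal muscle markers was 13.9 times as high in vehicle replicate 2 as in vehicle replicate 1, although Tnni2 had no value there. Between the same mice Snhg12 differed by -0.03, Snhg7 by -0.06, Snhg1 by 0.14 and Gas5 probe A_66_P134809 by -0.14. Snhg5, Snhg6 and Snhg3 were lower in vehicle replicate 2, by -0.62, -0.61 and -0.66. Whether the muscle or leukocyte content of that sample bears on these last 3 values was not tested. Vehicle replicate 2 had the lowest level of the brown fat elongase Elovl3, at -1.07 against 3.52 to 6.08 on the other arrays. Slide position was not analysed here, so treatment and slide position were not told apart.

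**Figure D3:**
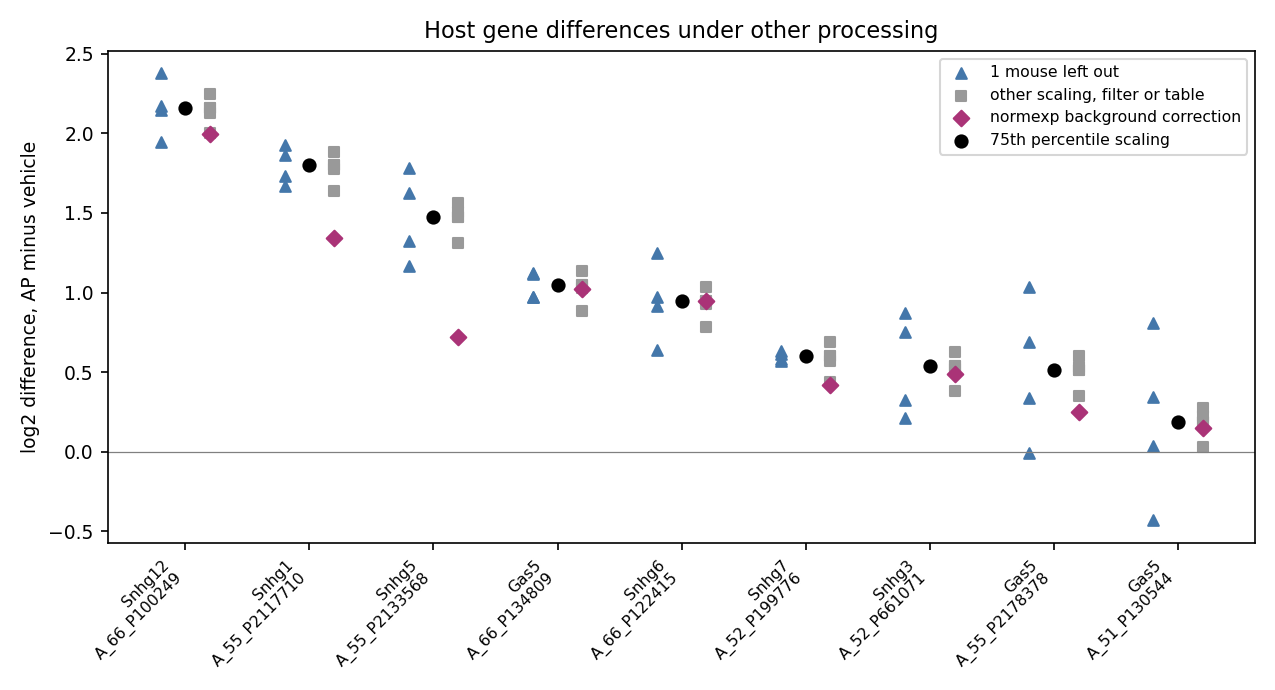
Log2 difference of AP minus vehicle for each host gene probe with the 75th percentile of each array (black), with 1 mouse left out at a time (blue triangles), with normexp background correction (purple diamonds) and with other scalings, filters or the authors' table (grey squares). Snhg12 stays between 1.95 and 2.38, Snhg5 drops to 0.72 with normexp, and only Gas5 probes A_55_P2178378 and A_51_P130544 go below 0.

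Among noncoding snoRNA host genes outside the 10, Snhg16 was also higher with AP. Of 12 such genes listed, 4 were compared. Snhg16, probe A_55_P2126448, was at 1.01 then 1.30 for the vehicle pair and at 3.23 then 2.31 for the AP pair. Its log2 difference was 1.62 (standard error 0.38), with an unadjusted p of 0.0096 and an adjusted p of 0.80 from limma, so it did not pass the threshold. Meg3, an imprinted host RNA, had a log2 difference of -0.91 (standard error 0.40), Snhg10 of 0.28 and Snhg17 of -0.10. Of the 4, 0 passed the adjusted threshold of limma and 1 was higher at an unadjusted p under 0.05, against 3.28% of all probes. Counted in either direction, the number at an unadjusted p under 0.05 was 2 with normexp or with the replicate block. It was 0 with the methods' t-test. Their median was 0.09, against 0.01 over 12765 named genes.

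Protein-coding hosts, mostly mRNAs of ribosomal proteins and translation factors that keep a functional reading frame, had differences from -0.54 to 0.43. Of 27 compared, 7 had both AP arrays above both vehicle arrays and 5 had them below, against 20.4% and 17.7% of all named genes. Of the 27, 15 were above 0 and 12 below, 0 passed the adjusted threshold of limma and 0 had an unadjusted p under 0.05, while the methods' t-test gave 3 before adjustment and 0 after it, and either the authors' log2 table or leaving out vehicle replicate 2 gave 1 before adjustment. The median log2 difference was 0.03. The largest differences were those of the chaperones Hspa8 (-0.54, standard error 0.32) and Hspa9 (0.43, standard error 0.28) and of the RNA helicase Eif4a2 (0.39, standard error 0.34). Rpl3 and Rps20, whose mRNAs also begin with a pyrimidine tract, had differences of 0.07 and 0.03. Whether noncoding and protein-coding hosts differ was not tested.

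The genes of the decay pathway itself had differences from -0.14 to 0.72. Of 17 NMD factors listed, 15 were compared, and 0 passed the adjusted threshold of limma or an unadjusted p under 0.05, with 1 under it by the methods' t-test, or without vehicle replicate 1, before adjustment. Of these, 12 were above 0 and 3 below, with a median log2 difference of 0.17, and 51.4% of all named genes were above 0. Both AP arrays lay above both vehicle arrays for 7 of the 15, against 20.4% of all named genes. Upf1, the helicase at the center of NMD, was at 1.84 then 1.71 for the vehicle pair and at 1.66 then 1.61 for the AP pair, a difference of -0.14 (standard error 0.20). The largest were Nbas (0.72, standard error 0.29), the endonuclease Smg6 (0.50, standard error 0.31) and Upf2 (0.43, standard error 0.26). Of 9 coding transcripts known as NMD targets, 4 were above 0 and 5 below. Gadd45a, a growth arrest gene, was higher by 2.79 (standard error 0.97) and Ddit3, which encodes CHOP, by 1.61 (standard error 0.45). Both were higher at an unadjusted limma p under 0.05, against 3.28% of all probes, and had an adjusted p of 0.80. Gadd45a was at 0.53 then 3.29 for the AP pair, so most of its difference came from AP replicate 2. Ddit3 is also an ISR target. The count of 2 at an unadjusted p under 0.05 was 0 without vehicle replicate 2 or with the methods' t-test and 3 without any of the other mice, left out singly. Atf4, which is among the ISR targets too, and the ER stress sensor gene Ern1 had differences of 0.94 and 0.83. Atf3 and Upp1 had differences of -0.62 and -0.59. The median of the 9 was -0.10.

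The genes of snoRNA-binding proteins had differences from -0.23 to 0.96. Of 17 snoRNP proteins and assembly factors, 12 were above 0 and 5 below, with a median log2 difference of 0.35. Both AP arrays lay above both vehicle arrays for 10 of the 17, against 20.4% of all named genes. None passed the adjusted threshold of limma, and 3 were higher at an unadjusted p under 0.05, against 3.28% of all probes. Gar1, a core protein of box H/ACA particles, was at 2.60 then 2.68 for the vehicle pair and at 3.40 then 3.81 for the AP pair, a difference of 0.96 (standard error 0.24). Shq1, which chaperones dyskerin, differed by 0.68 (standard error 0.25), and Nop58, a core protein of box C/D particles, by 0.62 (standard error 0.23). Fbl, the methyltransferase of box C/D particles, differed by 0.27 (standard error 0.20), and Nop56, its partner and a snoRNA host, by -0.07 (standard error 0.30). The 3 calls before adjustment became 4 with normexp, the array median, the filter on all 4 arrays or the variance trend. The count was 2 with quantile normalization, without a filter or with the methods' t-test. It was 1 with the replicate block, with the authors' log2 table or with all probes of each gene averaged. With any 1 mouse left out, fewer were called.

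**Figure D4:**
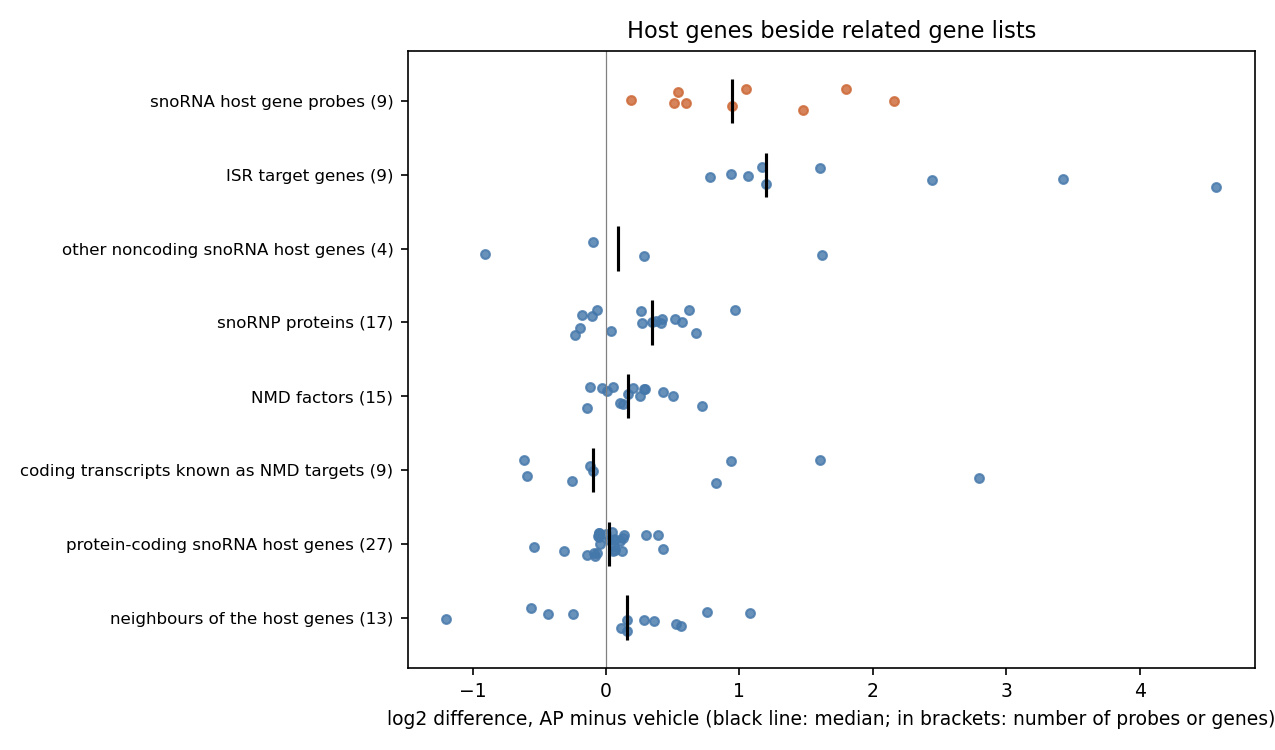
Log2 difference of AP minus vehicle for the host gene probes (orange) and for genes of related lists (blue), 1 point per probe or gene, with the median as a black line and the number of points in brackets. The medians are 0.94 for the host gene probes, 1.20 for ISR targets, 0.35 for snoRNP proteins, 0.17 for NMD factors and 0.03 for protein-coding hosts.

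Differences of the genes that lie beside the hosts ran from -1.20 for Serpinc1 to 1.08 for Slc3a2. Overlapping genes and the closest gene on each side were compared for the hosts with a probe, where they were measured. This gave 13 genes with a median of 0.16, of which 5 were higher and 2 lower in both AP-treated mice, where 18.3% and 20.7% of all probes were. None passed the adjusted threshold of limma, and 2 were higher at an unadjusted p under 0.05, against 3.28% of all probes. Slc3a2, a subunit of amino acid transporters and an ATF4 target, lies beside Snhg1 and was at 3.92 then 3.61 for the vehicle pair and at 4.52 then 5.18 for the AP pair, a difference of 1.08 (standard error 0.31). Zbtb37, a zinc finger gene that overlaps Gas5, was higher by 0.76 (standard error 0.22). Trnau1ap, between Snhg12 and Rcc1, differed by 0.36 (standard error 0.31). Rcc1 itself, a nuclear exchange factor beside Snhg3, differed by 0.16 (standard error 0.25). The other nearest genes that were measured were Wdr74 beside Snhg1 (0.56), Phactr4 beside Snhg3 (0.16), Syncrip beside Snhg5 (0.53), Sgk3 beside Snhg6 (0.29) and Dipk1b beside Snhg7 (0.12). Beside Gas5, Cenpl had a difference of -0.56 and Serpinc1 of -1.20 (standard error 0.91). On the other side of Snhg12, Rab42 was at -1.25 then -0.67 for the vehicle pair and at -1.04 then -1.75 for the AP pair.

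Among 11838 other named genes that were well above background on all 4 arrays, those whose pattern over the arrays was most like that of Snhg12 were Klf15, N4bp2l1, Ssh2, Gm10638 and Map3k6. The root mean square distance between the centered log2 values over the 4 arrays was 0.18, 0.19, 0.24, 0.30 and 0.38. Klf15 is a transcription factor of the fasting and glucocorticoid response, Ssh2 a cofilin phosphatase and Map3k6 a stress-activated kinase. Their log2 differences were 1.89 for Klf15, 1.90 for N4bp2l1, 1.88 for Ssh2, 1.75 for Gm10638 and 1.43 for Map3k6. With 4 arrays, such likeness describes these values and nothing more.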

How the data were processed

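BAT RNA of 4 Tg mice, 2 per group, was measured on Agilent SurePrint G3 Mouse arrays. Scans were extracted by the authors in Feature Extraction 10.7.1.1, who deposited the intensity of each spot, background-subtracted and without normalization between arrays, with quality flags. They also deposited a log2 table of the same arrays, whose normalization is not given in the sources used here. Its differences between arrays correlated with those of the scanner values at 0.9998 or more across probes, and its columns had medians of -0.28, -0.16, -0.44 and -0.29. Each probe there is centered on an unstated value.

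Control spots and outlier-flagged spots were left out, spots of a probe were averaged on the log2 scale, and the 75th percentile of each array was subtracted. A probe was kept if well above background in both mice of a group. The treatments were compared in limma 3.58.1 (lmFit, then eBayes; R 4.3.3) with Benjamini-Hochberg adjustment over all 24905 probes. Of 55681 probes, 26580 were named, 4 of them through the study's table, and the rest through RefSeq accessions of GRCm38.p6, used for names and gene order because the array design names another build. A list gene was read from its brightest probe. The genes named are all member probes, the 2 to 4 genes of each pathway list with the largest difference and those it is known for, the nearest measured genes, and the 5 genes most like Snhg12. Single values of some measured genes are not reported here.

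Members, lists and motifs were chosen with earlier results of these data known. The vehicle arrays correlated at 0.972 and the AP arrays at 0.981 (Pearson's r across probes), with 8.97% and 8.41% of probes at least 2-fold apart, so neither pair was a copy. Nothing in the labels pairs the mice, and p values measure only the spread between these mice. The number of arrays limits the precision: with 2 mice per group no value rests on more than 4 arrays. The alternatives were normexp (offset 50, on the median spot signal, in place of the mean that was planned), quantile normalization, the array median, 2 other filters, the authors' table, a variance trend, a replicate block, the average over each gene's probes, the methods' t-test, and leaving out each mouse.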

Additional observations from a re-analysis of the deposited data

How the results depend on the processing

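The count of probes past the adjusted threshold was 0 in all fits, and 997 to 2669 probes had an unadjusted p under 0.05. The median of the host gene probes, 0.94, was 0.72 with normexp and 0.78 with the authors' log2 table, which moves the median of all probes to -0.17. With 1 mouse left out at a time it was between 0.69 and 1.12. With the replicate block it was 0.94 and 0 probes passed, with 1221 under 0.05 before adjustment. Deviations from the group means correlated at -0.13 between mice of equal number, and the numbers give no pairing. Of 90 single-probe values under the alternatives, 81 kept their sign and stayed within 1 SD, pooled over both groups. Another 7 kept their sign and shifted by more, all toward 0 except Snhg7 with the array median, at 0.69. The last 2 reversed, both without AP replicate 2. They were Gas5 probe A_55_P2178378 at -0.01 (-0.007, range to 1.03) and A_51_P130544 at -0.43 (range to 0.81). With 2 mice per group, leaving out 1 mouse cannot shift a difference by more than that SD. The 2 other filters left every value unchanged. The count of 81 is therefore no measure of stability. With all mice kept, the number of host gene probes with both AP arrays above both vehicle arrays was 6 or 7. With 1 mouse left out this count cannot fall, so it is not given for those fits. In the list counts, 0 genes passed the adjusted threshold under any alternative. The causes were not tested.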
